A study of Homo sapiens with 15 samples.

Results

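The genes examined here are 10 members of the YAP/TEAD pathway: the co-activators *YAP1* and *WWTR1*, the transcription factor *TEAD1*, the regulators *LATS2*, *AJUBA* and *AMOTL2*, and the target genes *CTGF*, *CYR61*, *ANKRD1* and *AXL*. They were taken by name from a table of read counts for 57820 gene identifiers, in which *CTGF* and *CYR61* were matched through their current symbols CCN2 and CCN1. All 10 averaged at least 1 count per library and were among the 28793 genes tested.

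Counts came from 15 RNA-seq libraries of A673, an Ewing sarcoma cell line, in 5 conditions of 3 libraries each. The iLuc cells carried an shRNA against luciferase and an empty vector, and kept their own EWS/FLI, the fusion oncoprotein of this tumour. iEF cells carried an shRNA against the 3′ untranslated region of EWS/FLI and the same empty vector. The other 3 conditions combined the iEF shRNA with a FLAG-tagged cDNA: WT-EF encodes intact EWS/FLI, Δ22 lacks the EWS domain, and DAF has tyrosine-to-alanine changes in that domain. In every condition the shRNA was delivered by retrovirus on day 1 and the cDNA or empty vector on day 5, and selection in puromycin (2 μg/mL) and hygromycin B (400 μg/mL) ended on day 16. The study draws transduction, rescue, selection and harvest as the steps of a single replicate, and describes independent experiments for colony assays on the profiled cells. All libraries derive from a single cell line, and p-values measure the spread between its replicates.

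In the Hippo pathway, the LATS kinases phosphorylate YAP (encoded by *YAP1*) and TAZ (encoded by *WWTR1*), which keeps both out of the nucleus. When not phosphorylated, YAP and TAZ enter the nucleus and bind TEAD factors on DNA, where they activate genes of the extracellular matrix, cytoskeleton and growth control. Several of these target genes, *LATS2* and *AMOTL2* among them, encode inhibitors of YAP and TAZ. RNA levels do not report phosphorylation or localization of the proteins, neither of which was measured in these files.

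The libraries held between 28659475 and 41859880 counts, with a median of 32943231. *FLI1*, whose reads come from both the endogenous fusion and the cDNAs, was at 47.8 to 52.4 CPM (counts relative to the TMM-scaled total of the library) in iLuc and 12.9 to 15.5 CPM in iEF. It was at 16.0 to 18.7 CPM in WT-EF, 24.4 to 36.2 CPM in Δ22 and 22.1 to 27.3 CPM in DAF, so the WT-EF libraries were all below those of both mutants. Against iEF, *FLI1* was called higher in Δ22 (log2 fold change 1.09) and DAF (0.74) at adjusted p under 0.05 (edgeR). In WT-EF its value of 0.27 did not pass this threshold, although DESeq2's Wald test called it higher (0.31). These counts do not measure the proteins, for which the study reports western blots of the tagged constructs in A673 cells. The summed level of 6 Ewing sarcoma markers was 884 to 951 CPM in iLuc, 600.1 to 730.2 CPM in WT-EF, 240.5 to 436 CPM in DAF, 102 to 188 CPM in Δ22 and 86.3 to 105 CPM in iEF. *CD99*, a defining surface marker of this tumour and a pseudoautosomal gene, was counted at 0 to 3 reads per library, so these sums rest on the other 5 markers. The cause of its low counts was not tested, and they cannot be read as absent expression. The list includes *NKX2-2* and *NR0B1*, which the study describes as activated by EWS/FLI, so the sums are not independent of the knockdown. Of the 5 markers, 4 were higher in DAF than in iEF (adjusted p under 0.05, edgeR), but *NKX2-2* averaged 0.925 CPM in DAF and 0.943 CPM in iEF. The summed markers of blood, epithelium and endothelium did not exceed 1.01, 1.07 and 0.858 CPM in any library. Replicate 3 of WT-EF stood apart from replicates 1 and 2 for several of the 10 genes, as the values below show. Several results for these genes, and the WT-EF counts of the gene lists, are also given without it. Values of single genes from the lists are given with it.

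TEAD factors recognize the bases GGAATG, which contain GGAA, the core that FLI and other ETS factors bind. Windows of 300 bases (250 before to 50 after the annotated start, RefSeq, GRCh38.p14) were found for 8 of the 10 genes, not for *CYR61* and *TEAD1*. GGAATG, searched on both strands, was present in at least 1 window of 7 of these 8 genes and in 7 of their 12 windows (58.3%), against 14% of all 35116 windows of this length. *WWTR1* had no match in its 2 windows. *AXL*, *AMOTL2* and *AJUBA* also had 2 windows each, and in each gene only the window of the further downstream start held a match. Positions for these genes are relative to that start. *CTGF* and *ANKRD1*, which had the highest numbers of matches, are shown with *AXL*, *AMOTL2* and *YAP1* as stretches of 30 bases around the match, in the direction of the gene, with the motif or its reverse complement CATTCC in capitals.
CTGF, bases 169 to 164 before the start (chr6:131951524-131951553, minus strand): ttttcagacggaGGAATGctgagtgtcaag
CTGF, 104 to 99 and 95 to 90 before the start (chr6:131951459-131951488, minus strand): ggaaggtggggaGGAATGcgaGGAATGtcc
ANKRD1, 220 to 215 before the start (chr10:90921290-90921319, minus strand): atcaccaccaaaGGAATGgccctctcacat
ANKRD1, 128 to 123 before the start (chr10:90921198-90921227, minus strand): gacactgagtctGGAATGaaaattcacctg
AXL, 212 to 207 before the start (chr19:41226531-41226560, plus strand): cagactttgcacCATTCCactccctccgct
AMOTL2, 69 to 64 before the start (chr3:134374499-134374528, minus strand): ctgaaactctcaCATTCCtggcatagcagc
YAP1, 162 to 157 before the start (chr11:102110273-102110302, plus strand): cgggagtgtgcaGGAATGtagcaacttgca

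The match in *AJUBA* lay 59 to 54 bases before the further downstream of its starts, and that in *LATS2* 9 to 14 bases after the start. GGAAGGAA, a repeat of the ETS core that can overlap GGAATG, was found in the windows of *ANKRD1* and *YAP1*, against 3.67% of all windows. GGAA alone was in 95.5% of all windows. These are matches of letters, and binding was not measured in these files.

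**Figure D1:**
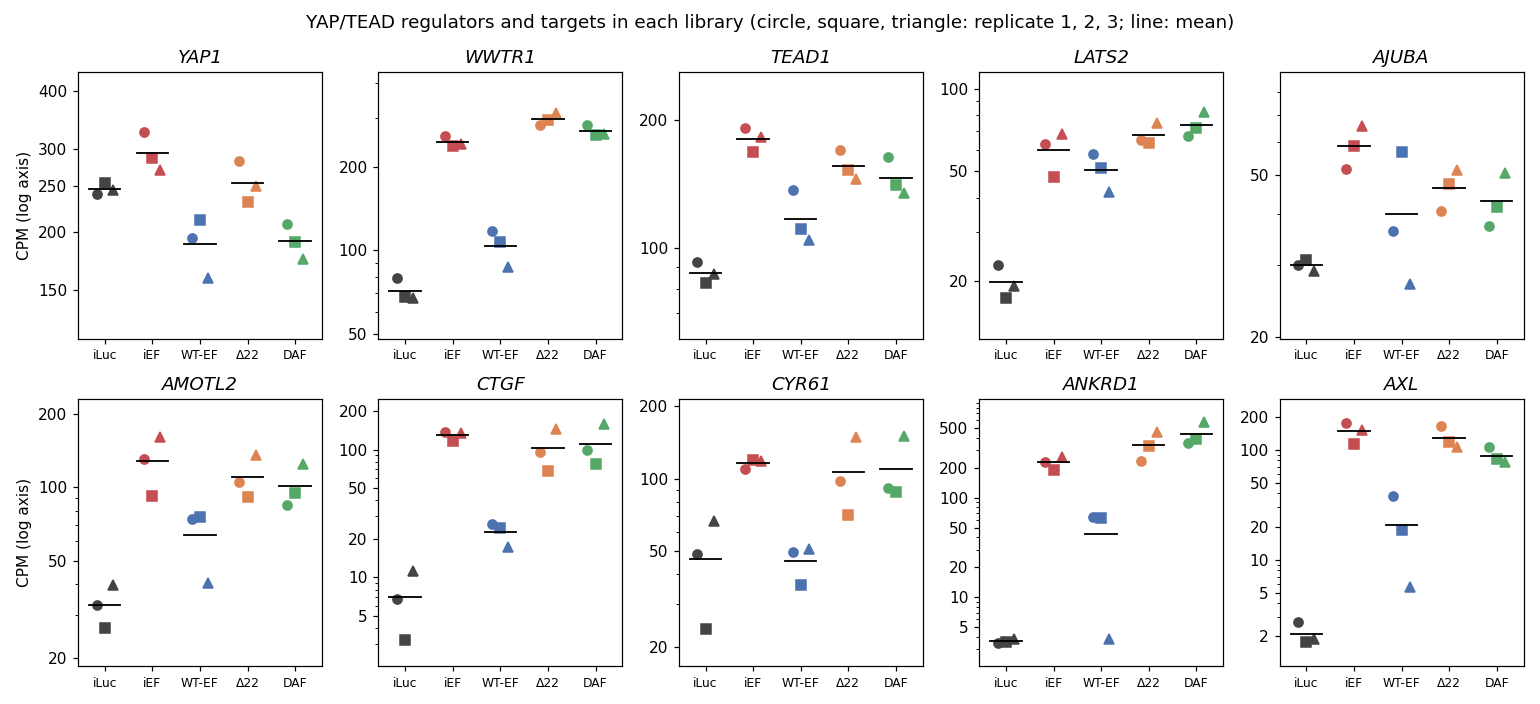
The 10 genes in each of the 15 libraries, in CPM on a log axis, with replicates 1, 2 and 3 as circles, squares and triangles and the group mean as a line. All 10 genes are lower in iLuc than in iEF, and replicate 3 of WT-EF lies at the iLuc level for *ANKRD1* (3.78 CPM).

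The question of the first comparison was how the pathway differs between cells that keep EWS/FLI and cells depleted of it. All 10 genes were lower in iLuc than in iEF, with no overlap between the 3 libraries of each condition (adjusted p under 0.05 in edgeR's quasi-likelihood test, adjusted over all genes tested by the Benjamini-Hochberg method). Of all genes tested, 22.1% were lower and 19.5% higher by this test, and 26.5% had every iLuc library below every iEF library. The median log2 fold change over the 10 genes was -1.69, against 0.04 over all genes. *AXL*, *ANKRD1* and *CTGF* differed most, and *YAP1* least. In bulk RNA, fewer cells of a kind and less RNA per cell cannot be told apart.

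Among the co-activators, *WWTR1* (ENSG00000018408, chr3:149235022-149454501 of GRCh37, the build of all gene coordinates given here) was at 79.2, 67.9 and 67.5 CPM in iLuc and 259, 237 and 242 CPM in iEF. The conditions were far apart relative to their spread, and the log2 fold change of iLuc over iEF was -1.78 (SE 0.10, adjusted p = 4.55e-09, edgeR). *YAP1* (ENSG00000137693, chr11:101981178-102104155) was at 240.2, 255 and 245 CPM in iLuc and 326, 288 and 271 CPM in iEF. The lowest iEF library of *YAP1* lay above the highest iLuc library by less than the range of the iEF libraries. Its log2 fold change was -0.25 (SE 0.10, adjusted p = 0.0492, edgeR), a call that held in only 10 of 26 alternative analyses, and it was -0.04 (adjusted p = 0.733, edgeR) with library totals in place of TMM. Without the replicate block its adjusted p was 0.0841 (edgeR).

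*TEAD1* (ENSG00000187079, chr11:12695968-12966284), a DNA-binding partner of both co-activators, was at 92.7, 82.8 and 86.7 CPM in iLuc and 192, 168 and 183 CPM in iEF. Every iEF library was well above the iLuc libraries, with a log2 fold change of -1.05 (SE 0.08, adjusted p = 7.50e-08, edgeR). Per kb of exon, *YAP1* RNA was above that of *WWTR1* and the 4 TEAD genes in iLuc, iEF and WT-EF, while in Δ22 and DAF the libraries of *YAP1* and *WWTR1* overlapped. *YAP1* was at 39.1 ± 1.16 CPM per kb in iLuc and 46.7 ± 4.44 CPM per kb in iEF, while *WWTR1* was at 8.56 ± 0.795 and 29.4 ± 1.37 CPM per kb (mean ± SD, n = 3). In iLuc cells *WWTR1* lay near *TEAD1*, at 8.17 ± 0.466 CPM per kb, and below *TEAD2*, at 12.0 ± 0.293 CPM per kb. In iEF cells *WWTR1* was above *TEAD1*, at 16.9 ± 1.13 CPM per kb, and *TEAD2*, at 11.7 ± 0.807 CPM per kb. Exon lengths came from a later annotation than the one counted, so levels per kb are approximate.

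**Figure D2:**
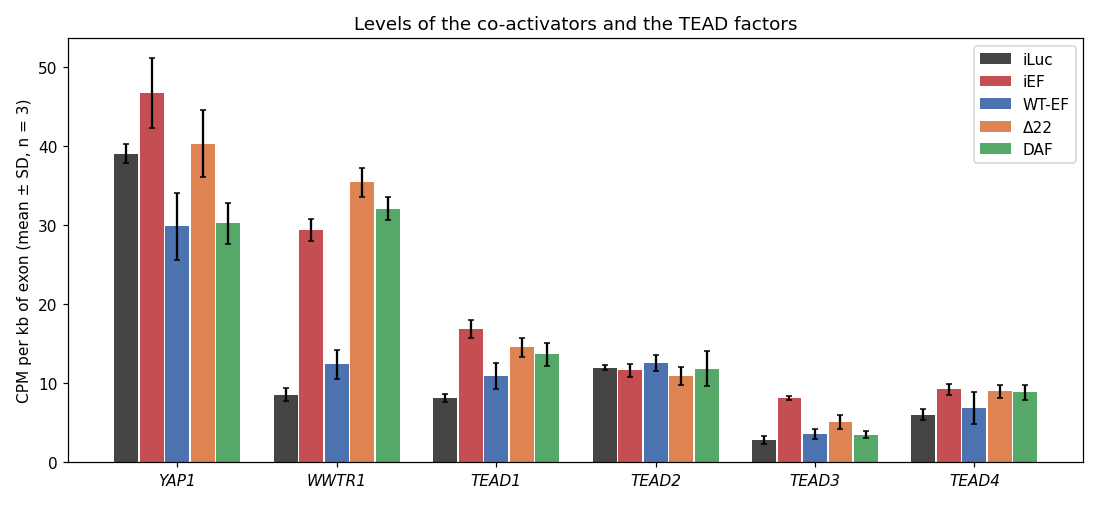
RNA levels of *YAP1*, *WWTR1* and 4 TEAD genes in CPM per kb of exon, as means with SD over the 3 libraries of each condition. The means of *WWTR1* are 8.56 and 12.4 CPM per kb in iLuc and WT-EF and between 29.4 and 35.4 CPM per kb in the other 3 conditions, whereas those of *TEAD2* lie between 10.9 and 12.6 CPM per kb.

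Of the regulators, *LATS2* (ENSG00000150457, chr13:21547175-21635725), a kinase that phosphorylates YAP and TAZ, was at 22.8, 17.3 and 19.2 CPM in iLuc and 63.0, 47.6 and 68.6 CPM in iEF. The groups did not overlap, and the log2 fold change was -1.59 (SE 0.14, adjusted p = 4.95e-07, edgeR). *AMOTL2* (ENSG00000114019, chr3:134074189-134094321), an angiomotin family protein that binds YAP, ranged from 26.4 to 39.8 CPM in iLuc and from 92.3 to 161 CPM in iEF, with a log2 fold change of -1.95 (SE 0.24, adjusted p = 1.15e-05, edgeR). *AJUBA* (ENSG00000129474, chr14:23440386-23451760), a LIM protein that binds and restrains LATS kinases, ranged from 29.0 to 30.8 CPM in iLuc and from 51.7 to 65.8 CPM in iEF, with a log2 fold change of -0.97 (SE 0.19, adjusted p = 0.000711, edgeR). The genes lower in iLuc included inhibitors of the co-activators as well as the co-activators themselves.

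The target genes differed more. *CTGF* (ENSG00000118523, chr6:132269316-132272512), a secreted matrix-associated protein, was at 6.69, 3.20 and 11.2 CPM in iLuc and 137, 116 and 134 CPM in iEF. The groups were far apart, with a log2 fold change of -4.30 (SE 0.31, adjusted p = 6.23e-08, edgeR). *CYR61* (ENSG00000142871, chr1:86046444-86050272), its close relative, ranged from 23.7 to 66.5 CPM in iLuc and from 109.5 to 120.0 CPM in iEF, with a smaller log2 fold change of -1.44 (SE 0.21, adjusted p = 5.87e-05, edgeR).

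*ANKRD1* (ENSG00000148677, chr10:92671853-92680844), an ankyrin repeat protein of muscle that is widely used as a YAP readout, was at 3.45, 3.59 and 3.82 CPM in iLuc and 229, 192 and 257 CPM in iEF. Its iLuc libraries were nearly equal, and the log2 fold change was -5.96 (SE 0.75, adjusted p = 1.36e-05, edgeR). *AXL* (ENSG00000167601, chr19:41725128-41767671), a receptor tyrosine kinase, was at 2.69, 1.77 and 1.91 CPM in iLuc and 176, 111 and 152 CPM in iEF. This was the largest difference of the 10 genes, with a log2 fold change of -6.15 (SE 0.42, adjusted p = 3.41e-08, edgeR). Exons of *CTGF*, *AXL*, *YAP1* and *WWTR1* overlap those of another annotated gene on the opposite strand. The strand setting of the counting is not given in the sources used here, so the assignment of reads in these overlaps is uncertain. Exons of *AMOTL2* and *AJUBA* overlap those of another gene on the same strand, where strand cannot separate the reads.

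WT-EF tested whether an intact EWS/FLI cDNA lowers the pathway again in depleted cells. It did for 9 of the 10 genes, which were lower in WT-EF than in iEF (adjusted p under 0.05, edgeR), where 17% of all genes tested were lower and 12.9% higher. The median log2 fold change over the 10 genes was -1.10, and -0.01 over all genes. Without replicate 3 of WT-EF, 8 genes were lower, since the adjusted p of *AJUBA* rose from 0.0331 to 0.149 (edgeR).

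*WWTR1* was at 117, 107 and 86.9 CPM in WT-EF, below every iEF library, with a log2 fold change of -1.25 (SE 0.10, adjusted p = 3.89e-07, edgeR). *TEAD1* was at 137, 111 and 104 CPM, also below iEF throughout, with a log2 fold change of -0.63 (SE 0.08, adjusted p = 2.08e-05, edgeR). *YAP1* was at 194, 212 and 159 CPM, and its log2 fold change of -0.65 (SE 0.10, adjusted p = 0.000131, edgeR) was past the threshold in all 26 alternative analyses. The *YAP1* libraries of WT-EF also lay below all iLuc libraries.

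*CTGF* was at 25.9, 24.2 and 17.3 CPM in WT-EF, with a log2 fold change against iEF of -2.48 (SE 0.28, adjusted p = 1.15e-05, edgeR). *AXL* was at 38.2, 18.6 and 5.59 CPM, with a log2 fold change of -3.00 (SE 0.35, adjusted p = 1.31e-05, edgeR). All WT-EF libraries of these genes were below all iEF libraries, although the 3 *AXL* values differed widely. *ANKRD1* was at 63.6, 62.0 and 3.78 CPM. Its log2 fold change was -2.40 (SE 0.63, adjusted p = 0.00949, edgeR) with all libraries and -1.66 (adjusted p = 1.48e-06, edgeR) without replicate 3 of WT-EF, and -2.99 (adjusted p = 0.00779, edgeR) without replicate 1 of WT-EF. Without replicate 3 of all conditions the *AXL* value was -2.33 (adjusted p = 2.82e-09, edgeR). Replicate 3 of WT-EF was the lowest of the 3 for 9 of the 10 genes, and the highest for *CYR61*. Without replicate 2 of all conditions the adjusted p of *ANKRD1* was 0.0578 (edgeR).

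*CYR61* was at 36.2 to 50.8 CPM in WT-EF, with a log2 fold change against iEF of -1.39 (SE 0.21, adjusted p = 0.000142, edgeR), and *AMOTL2* was at 40.6 to 75.8 CPM, with a log2 fold change of -0.96 (SE 0.24, adjusted p = 0.00634, edgeR). The *AMOTL2* value was -0.56 (adjusted p = 0.00234, edgeR) without replicate 3 of WT-EF. *AJUBA* was at 36.3, 56.8 and 26.9 CPM, overlapping the iEF range, with a log2 fold change of -0.57 (SE 0.19, adjusted p = 0.0331, edgeR), and its adjusted p was 0.0510 without the replicate block and 0.127 with library totals in place of TMM (edgeR). *LATS2* was the exception. It was at 57.9, 51.3 and 42.0 CPM, overlapped the iEF libraries and had a log2 fold change of -0.23 (SE 0.14, adjusted p = 0.248, edgeR), which missed the threshold in all 26 alternatives.

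**Figure D3:**
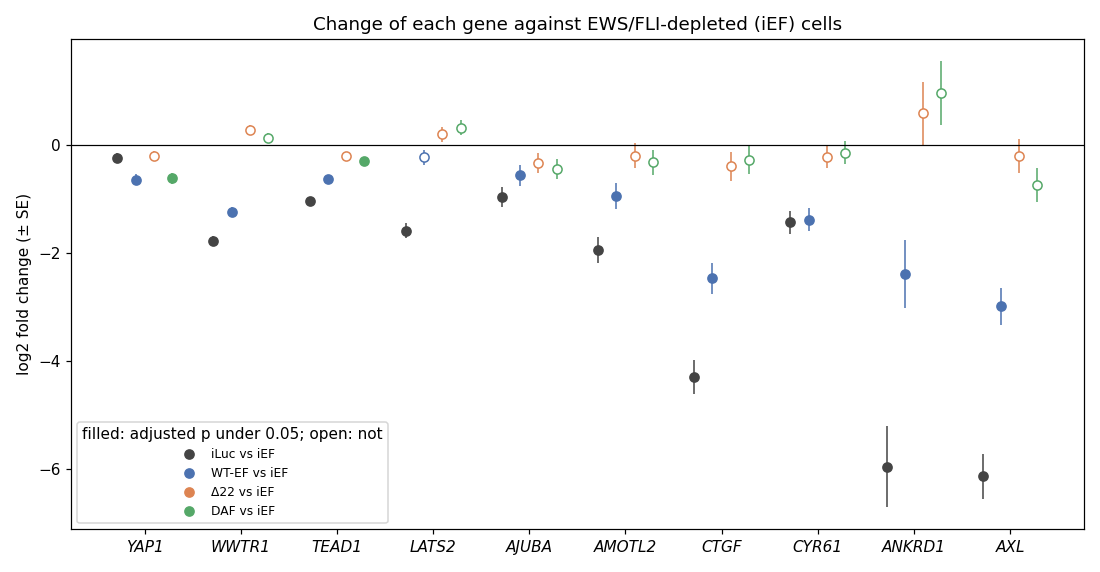
Log2 fold change with SE of the 10 genes in iLuc, WT-EF, Δ22 and DAF, each against the same iEF libraries, with filled points at adjusted p under 0.05 (edgeR). All iLuc points are filled and below 0, 9 WT-EF points are filled, no Δ22 point is filled, and DAF has filled points for *YAP1* and *TEAD1*.

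Levels in WT-EF also differed from those in iLuc. Against iLuc, 7 of the 10 genes were higher in WT-EF and *YAP1* was lower (adjusted p under 0.05, edgeR), while 10.7% of all genes were higher and 9.03% lower. Without replicate 1 or replicate 2 of all conditions, 4 and 3 genes were higher. *LATS2* had a log2 fold change of WT-EF over iLuc of 1.36 (SE 0.14, adjusted p = 2.16e-05, edgeR), with no overlap of the libraries. *AXL* was higher by 3.15 (adjusted p = 8.17e-05), *ANKRD1* by 3.57 (adjusted p = 0.00248) and *CTGF* by 1.82 (adjusted p = 0.000593) on the log2 scale (edgeR). Replicate 3 of WT-EF lay within the iLuc range of *ANKRD1*, and without that library its value was 4.32 (adjusted p = 2.55e-10, edgeR). Without replicate 3 of all conditions the *CTGF* value was 2.46 (adjusted p = 1.57e-08, edgeR).

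*AMOTL2* (log2 fold change 0.99, adjusted p = 0.00868), *WWTR1* (0.53, adjusted p = 0.00118) and *TEAD1* (0.42, adjusted p = 0.00160) were also higher in WT-EF than in iLuc (edgeR). *YAP1* went the other way, with a log2 fold change of -0.40 (SE 0.10, adjusted p = 0.00977, edgeR), but the adjusted p was 0.0656 without replicate 3 of WT-EF. *CYR61* had a log2 fold change of 0.05 (SE 0.21, adjusted p = 0.911, edgeR). *AJUBA* had 0.40 (adjusted p = 0.168, edgeR), which became 0.71 (adjusted p = 0.000560, edgeR) without replicate 3 of WT-EF.

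On the linear scale, WT-EF covered most of the distance from iEF to iLuc at several genes, computed within each replicate number. The share was 87.2% ± 7.04 for *CTGF*, 87.2% ± 9.29 for *AXL*, 81.5% ± 6.39 for *WWTR1* and 68.2% ± 13.0 for *TEAD1* (SD, n = 3 sets each). For *ANKRD1* it was 80.8% ± 16.8, from 69.0% to 100% over the 3 sets. It was 17.9% ± 33.4 for *LATS2* and 60.7% ± 37.2 for *AMOTL2*, with a wide spread over the sets. *AXL*, at 87.2% on this scale, was still above every iLuc library in every WT-EF library. For Δ22 the share was 10.8% ± 18.7 for *AXL* and -29.1% ± 14.3 for *WWTR1*, and for DAF it was 39.2% ± 11.5 and -13.0% ± 1.03, a negative share being a level beyond iEF. The *ANKRD1* share was -50.9% ± 42.8 in Δ22 and -94.9% ± 37.6 in DAF. At other genes the mutants had positive shares. For *TEAD1* these were 26.4% ± 11.15 in Δ22 and 36.9% ± 11.6 in DAF. For *AJUBA* the share was 61.5% ± 49.7 in WT-EF, 43.9% ± 6.52 in Δ22 and 56.5% ± 13.1 in DAF. Every Δ22 and DAF library of *AJUBA* lay below every iEF library, without a call (adjusted p = 0.466 and 0.157, edgeR). For *YAP1* the distance from iEF to iLuc was too small for the share to be read.

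Δ22, the cDNA without the EWS domain, was compared with iEF to see what the FLI portion does alone. None of the 10 genes passed the adjusted p threshold in Δ22 (edgeR), where 0.83% of all genes were lower and 0.472% higher. At an unadjusted p under 0.05, 3 genes did (*TEAD1*, *WWTR1* and *YAP1*). DESeq2's Wald test called none, and limma on the ComBat-adjusted values called 1 higher, *WWTR1*. The median log2 fold change over the 10 genes was -0.21, and 0.01 over all genes.

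*WWTR1* was at 282, 294 and 312 CPM in Δ22, above all 3 iEF libraries, with a log2 fold change of 0.27 (SE 0.09, adjusted p = 0.187, edgeR). *TEAD1* was at 170.4, 152 and 145 CPM, overlapping iEF, with -0.22 (SE 0.08, adjusted p = 0.207, edgeR). *CTGF* was at 94.8, 68.1 and 144 CPM, *ANKRD1* at 232, 329.5 and 453 CPM and *AXL* at 163, 118 and 106 CPM. Each of these 3 target genes overlapped its iEF range, and replicate 3 was the highest for *CTGF* and *ANKRD1* and the lowest for *AXL*. *CTGF* was called lower, at -0.63 (adjusted p = 0.0265, edgeR), without replicate 3 of all conditions, and *ANKRD1* was called higher, at 0.54 (adjusted p = 0.0323, edgeR), without replicate 3 of WT-EF, which enters the shared estimate of the spread. Each of these genes was past the threshold in only 1 of 26 alternatives, and in the main fit the adjusted p was 0.577 for *CTGF* and 0.755 for *ANKRD1* (edgeR).

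DAF, the tyrosine-to-alanine mutant, was compared with iEF to ask what remains of the function without these tyrosines. *YAP1* and *TEAD1* were lower in DAF than in iEF and the other 8 genes did not pass the threshold (edgeR), where 6.19% of all genes were lower and 5% higher. *YAP1* was at 208, 190.0 and 175 CPM. All 3 values were below every iEF and every iLuc library, and the log2 fold change against iEF was -0.63 (SE 0.10, adjusted p = 0.000843, edgeR), past the threshold in all 26 alternatives. *TEAD1* was at 164, 141 and 135 CPM, below iEF throughout, with a log2 fold change of -0.31 (SE 0.08, adjusted p = 0.0171, edgeR). Its adjusted p was 0.109 without the replicate block and 0.0656 with library totals in place of TMM (edgeR).

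*WWTR1* was at 282, 260.0 and 262 CPM in DAF, slightly above the iEF libraries, with a log2 fold change of 0.13 (SE 0.09, adjusted p = 0.477, edgeR). In DAF, *YAP1* RNA was lower than in iEF, and *WWTR1* RNA was not called different. *CTGF* was at 98.9, 76.9 and 157 CPM, overlapping iEF, with -0.28 (SE 0.27, adjusted p = 0.600, edgeR). *CYR61* was at 88.4 to 150.3 CPM (log2 fold change -0.15, adjusted p = 0.752, edgeR).

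*ANKRD1* was at 350.5, 384 and 581 CPM in DAF, above all iEF libraries, with a log2 fold change of 0.96 (SE 0.59, adjusted p = 0.372, edgeR). *AXL* was at 105, 82.1 and 77.8 CPM, below all iEF libraries, with -0.74 (SE 0.32, adjusted p = 0.166, edgeR). Replicate 3 of WT-EF, the lowest of its condition for both genes, enters the spread of this test. Without that library *ANKRD1* had 0.95 (adjusted p = 0.000183), *LATS2* 0.34 (adjusted p = 0.0366), *AXL* -0.70 (adjusted p = 0.00115) and *AJUBA* -0.43 (adjusted p = 0.0154, all edgeR). The count against iEF was then 2 genes higher and 4 lower, with nearly the same fold changes as before. Over the 26 alternatives, *ANKRD1*, *AXL* and *AJUBA* were each past the threshold in only 4, and *LATS2* in 2.

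WT-EF and DAF were then compared directly. Lower levels in WT-EF than in DAF were found for 7 of the 10 genes (adjusted p under 0.05, edgeR), and none was higher, where 16.1% of all genes were lower and 12.4% higher. The log2 fold change of WT-EF over DAF was -3.35 for *ANKRD1* (adjusted p = 0.00135), -2.25 for *AXL* (adjusted p = 0.000172) and -2.19 for *CTGF* (adjusted p = 5.05e-05, all edgeR). The *ANKRD1* value was -2.61 (adjusted p = 1.51e-07) without replicate 3 of WT-EF and -3.95 (adjusted p = 0.00158) without replicate 1 of WT-EF (edgeR). It was -1.38 for *WWTR1* (adjusted p = 8.76e-07) and -1.24 for *CYR61* (adjusted p = 0.000438, both edgeR).

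*LATS2* (-0.55, adjusted p = 0.00796) and *TEAD1* (-0.32, adjusted p = 0.00531, libraries overlapping) differed less, and the *TEAD1* call was lost with library totals in place of TMM (-0.17, adjusted p = 0.110, all edgeR). *AMOTL2* had a log2 fold change of -0.63 (adjusted p = 0.0595, edgeR), and -0.25 (adjusted p = 0.143, edgeR) without replicate 3 of WT-EF. *AJUBA* had -0.12 (adjusted p = 0.698, edgeR), with overlapping libraries. For *YAP1* the log2 fold change was -0.02 (SE 0.10, adjusted p = 0.917, edgeR), with the 3 libraries of each condition overlapping. Without replicate 3 of WT-EF, 7 genes were still lower in WT-EF.

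No gene of the 10 passed the threshold between DAF and Δ22 (edgeR), where 0.948% of all genes were higher and 0.379% lower. At an unadjusted p under 0.05 *YAP1* alone did, and DESeq2's Wald test also called *YAP1* lower in DAF, while limma on the ComBat-adjusted values called none. *YAP1* was at 283, 231 and 249.9 CPM in Δ22, above all DAF libraries, with a log2 fold change of DAF over Δ22 of -0.42 (SE 0.10, adjusted p = 0.0506, edgeR), which was past the threshold in 7 of 26 alternatives. *AXL* was also lower in every DAF library than in any Δ22 library, at -0.53 (SE 0.32, adjusted p = 0.651, edgeR), and -0.51 (adjusted p = 0.0329, edgeR) without replicate 3 of WT-EF. The *AXL* difference was past the threshold in 4 of 26 alternatives.

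The order of the conditions differed between genes. For *CTGF* and *AXL*, iLuc was lowest and WT-EF next, and the mean levels of iEF, Δ22 and DAF were all several times that of WT-EF. For *WWTR1* the order was the same at the low end, while the means of both mutants lay above iEF without being called. For *LATS2*, all iLuc libraries lay below every library of the other 4 conditions. *YAP1* was lowest in WT-EF and DAF, which did not differ beyond their spread, and iLuc and Δ22 overlapped above them.

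The remaining TEAD genes and their cofactors were read from a list of 7, of which 5 were tested and *VGLL1* and *VGLL2* were near 0. In iLuc against iEF, 4 of the 5 were lower and none higher, in WT-EF 2 were lower, and in Δ22 and DAF 1 was lower (edgeR). Over all genes tested, the shares lower were 22.1% in iLuc, 17% in WT-EF, 0.83% in Δ22 and 6.19% in DAF. Without replicate 3 of WT-EF, 1 of the 5 was lower in WT-EF. The recurrent gene was *TEAD3*, which was at 10.2, 8.28 and 7.19 CPM in iLuc, 25.5, 24.0 and 25.3 CPM in iEF and 11.8, 8.93 and 12.2 CPM in WT-EF. It was at 16.5, 12.6 and 17.8 CPM in Δ22 and 10.4, 9.71 and 12.1 CPM in DAF, so that every library of the other 4 conditions was below iEF. Its log2 fold change against iEF was -1.54 in iLuc (adjusted p = 6.20e-07), -1.19 in WT-EF (adjusted p = 1.50e-05), -1.22 in DAF (adjusted p = 0.000103) and -0.69 in Δ22 (adjusted p = 0.0244, all edgeR). The Δ22 call held in 16 of 25 alternatives. *VGLL3*, a TEAD cofactor, was lower in iLuc (-0.74, adjusted p = 0.000561), and *TEAD4* was lower in WT-EF (-0.43, adjusted p = 0.0286, edgeR) with overlapping libraries, a call held in 16 of 25 alternatives. With library totals in place of TMM, 1 of the 5 was higher and 1 lower in WT-EF.

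Among 27 genes of the kinase cascade and its upstream regulators, 14 were lower and 5 higher in iLuc than in iEF, and 12 were lower and 3 higher in WT-EF (edgeR). The shares over all genes tested were 22.1% lower and 19.5% higher in iLuc, and 17% and 12.9% in WT-EF. The list's counts of higher genes were near these shares. Without replicate 3 of WT-EF, 10 were lower and 4 higher in WT-EF. With library totals in place of TMM the list had 12 lower and 8 higher in iLuc, and 7 lower and 7 higher in WT-EF. That scaling moved the median of all genes with at least 50 counts by 0.21 in iLuc and 0.23 in WT-EF on the log2 scale, so small shifts are relative to the scaling, while the genes named next were called under each scaling. *FRMD6*, a FERM-domain activator of the cascade, was at 65.0 to 72.8 CPM in iLuc, 439 to 517 CPM in iEF and 91.6 to 190.0 CPM in WT-EF. Its log2 fold change was -2.77 in iLuc (adjusted p = 1.76e-07) and -1.63 in WT-EF (adjusted p = 4.66e-05, both edgeR). *WTIP*, a LIM protein related to *AJUBA*, was lower in iLuc (-2.69, adjusted p = 1.24e-05), and *FAT1*, a protocadherin, was lower in WT-EF (-1.30, adjusted p = 1.98e-06). *MAP4K2*, a kinase acting on LATS, was higher in iLuc (1.18, adjusted p = 5.94e-05) and WT-EF (0.92, adjusted p = 0.000895).

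In the same list, 1 gene was higher in Δ22 and none lower, and in DAF 6 were higher and 5 lower (edgeR). The shares over all genes tested were 0.472% higher and 0.83% lower in Δ22, and 5% and 6.19% in DAF. *FAT4*, a protocadherin of the pathway's upstream branch, was at 69.2, 91.1 and 74.1 CPM in iEF, 112, 232 and 134 CPM in Δ22 and 232, 258 and 208 CPM in DAF. Its log2 fold change was 0.99 in Δ22 (adjusted p = 0.00893), 1.58 in DAF (adjusted p = 3.55e-05), 1.53 in WT-EF (adjusted p = 5.19e-06) and 0.64 in iLuc (adjusted p = 0.00418, all edgeR), with no overlap with iEF in any. The call in Δ22 was lost in 4 of 25 alternatives. *DCHS1*, the ligand of FAT4, was higher in DAF (1.06, adjusted p = 0.000102), and *STK4* (-0.50, adjusted p = 0.00291) and *WWC1* (-0.75, adjusted p = 0.0465) were lower in DAF (edgeR). The *STK4* call held in 24 of 25 alternatives and that of *WWC1* in 9. With library totals in place of TMM, 9 genes were higher and 2 lower in DAF.

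**Figure D4:**
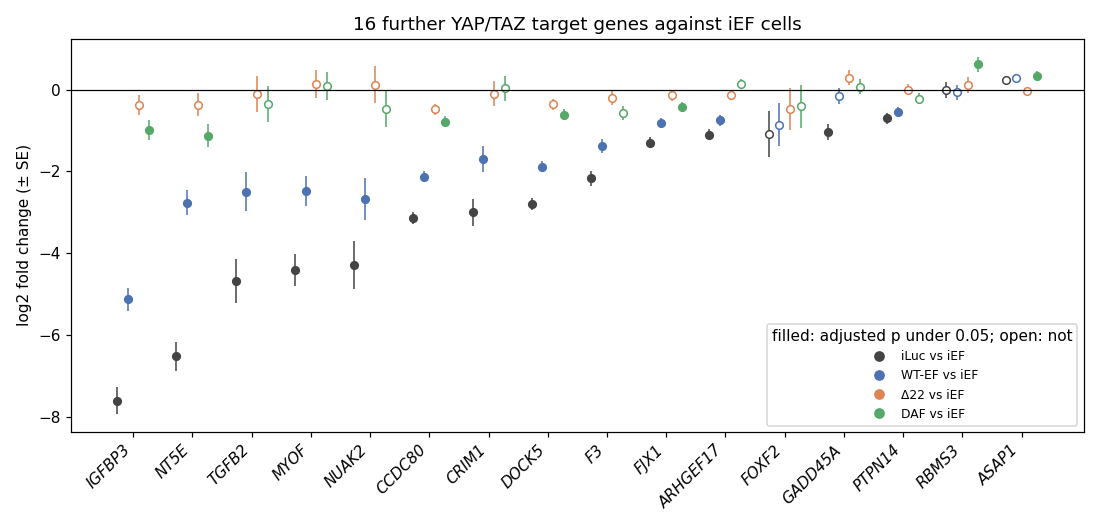
Log2 fold change with SE of 16 further YAP/TAZ target genes in 4 conditions against iEF, ordered by the change in iLuc, with filled points at adjusted p under 0.05 (edgeR). In iLuc and WT-EF, 13 and 12 of the 16 genes are lower, against 22.1% and 17% of all genes tested. None of the 16 is called in Δ22.

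A list of 16 further target genes of YAP and TAZ showed 13 genes lower in iLuc than in iEF and 12 lower in WT-EF, with none higher (edgeR). Of all genes tested, 22.1% and 17% were lower. The median log2 fold changes were -2.48 and -1.54, against 0.04 and -0.01 over all genes. Without replicate 3 of WT-EF, 12 of the 16 were still lower in WT-EF, and the median was -1.16. With library totals in place of TMM, 1 gene was higher in each comparison and the counts of lower genes were the same. *IGFBP3*, a secreted binding protein of insulin-like growth factors, was at 35.9, 30.3 and 22.1 CPM in iLuc and 7644, 4804 and 4874 CPM in iEF. It was at 257, 185 and 73.6 CPM in WT-EF and 3766, 2172 and 2695 CPM in DAF. Its log2 fold change against iEF was -7.60 in iLuc (adjusted p = 9.27e-10), -5.13 in WT-EF (adjusted p = 4.34e-08) and -0.996 in DAF (adjusted p = 0.0164, all edgeR). The study counts *IGFBP3* among the targets that EWS/FLI represses directly, and by qRT-PCR it found this repression partially rescued by DAF. The level of *IGFBP3* therefore cannot be read as a measure of YAP and TAZ alone.

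*NT5E*, which encodes the cell-surface nucleotidase CD73, was at 25.4 to 51.4 CPM in iLuc, 2687 to 3763 CPM in iEF, 204 to 819.9 CPM in WT-EF and 1370.5 to 1872 CPM in DAF. Every DAF library was below every iEF library, and the log2 fold change was -6.52 in iLuc (adjusted p = 4.61e-09), -2.77 in WT-EF (adjusted p = 7.12e-06) and -1.13 in DAF (adjusted p = 0.0174, all edgeR). In Δ22 none of the 16 genes was called by edgeR, and DESeq2's Wald test called 1 lower. In DAF 5 were lower and 2 higher, *RBMS3* (0.61, adjusted p = 0.0499) and *ASAP1* (0.34, adjusted p = 0.0472). Over all genes tested, 0.83% were lower and 0.472% higher in Δ22, and 6.19% and 5% in DAF. The DAF calls of *IGFBP3* and *NT5E* each held in 17 of 25 alternatives, that of *RBMS3* in 16 and that of *ASAP1* in 15. Without the replicate block none of the 16 was called in DAF (edgeR). Against DAF, 12 of the 16 were lower in WT-EF and none higher, where 16.1% of all genes were lower and 12.4% higher. The median was -1.08, and -0.005 over all genes. Without replicate 3 of WT-EF, 11 were lower and the median was -0.97.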

How the data were processed

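The authors sequenced Illumina ScriptSeq libraries, aligned the reads to hg19 with STAR (2.5.1b in the submitters' processing notes) and counted them per gene with htseq-count in intersection-strict mode. The deposited counts are raw whole numbers. A deposited table of counts that the authors adjusted with ComBat holds a signal with decimals, which served only in an alternative. A further deposited table of the authors' DESeq2 fold changes and adjusted p-values was not used, nor were 3 columns of no sample used here.

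edgeR 4.0.16 (R 4.3.3) was run on genes with a mean of 1 count or more over the libraries, scaled by TMM. A quasi-likelihood model of all 15 libraries was fitted with condition and, since the study's methods adjusted each replicate set as a batch, the replicate number as a block. Deviations from group means correlated with a median r of 0.185 within numbers (30 pairs) and -0.0842 between numbers (60 pairs). Benjamini-Hochberg adjustment was made separately for the 7 comparisons. Within each condition, every pair of replicates differed by more than sampling noise (chi-square per gene of 11.3 to 71.9). The code was tested on simulated data.

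The 10 genes and the lists were chosen with earlier results of these data known. Also named are *FLI1*, from each of the 3 lists the 2 genes with the largest fitted change in each direction among those called in a comparison with iEF at an average of at least 1 CPM, and the gene most correlated with each of the 10. All comparisons with iEF share its 3 libraries. Alternatives covered normalization, filters, DESeq2 1.42.0, limma 3.58.1 on the log2 of ComBat-adjusted CPM plus 0.5, the block, and libraries left out. Library totals without TMM were added after seeing the data. CD99 and other markers came from fixed lists, and *PECAM1* was not used here.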

Additional observations from a re-analysis of the deposited data

How the results depend on the processing

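Of 36 member values past the adjusted p threshold over the 7 comparisons, 25 were past it in all 26 alternatives and 11 were not in at least 1. Of the 34 others, 13 passed it in at least 1 alternative, and 12 changed sign in at least 1. No called value changed sign. The counts of genes in iLuc against iEF, WT-EF against iEF and WT-EF against DAF stayed within 1.5 times the values given. Without the replicate block, DAF against iEF had 1 gene lower, and with library totals in place of TMM DAF had 1 lower against iEF and 1 lower against Δ22. DESeq2's Wald test and the stricter filter each gave 1 gene lower in DAF than in Δ22. With limma on the ComBat-adjusted values, 1 gene was higher in Δ22 than in iEF, and in DAF 1 was higher and 1 lower. With no filter, 1 gene was higher and 4 were lower in DAF than in iEF, and 2 were lower than in Δ22. With only the 6 libraries compared, DAF had 1 higher and 4 lower against iEF and 1 higher and 2 lower against Δ22, and WT-EF had 0 lower than iLuc.

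Over the fits that left out a replicate or a library, DAF had 1 to 4 genes lower and 0 to 2 higher than iEF, Δ22 had 0 to 1 lower and 0 to 1 higher than iEF, WT-EF had 3 to 8 higher and 0 to 1 lower than iLuc, and DAF had 0 to 2 lower than Δ22. The cause of these changes was not tested, except that fewer replicates leave fewer degrees of freedom. With library totals, the median of all genes with at least 50 counts moved by 0.21 in iLuc and 0.23 in WT-EF against iEF and by 0.15 in WT-EF against DAF. Limma on the ComBat-adjusted values moved it by 0.18, 0.20 and 0.13. With 3 libraries per condition, the call of *YAP1* between iLuc and iEF depended on which library was left out.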

Other observations

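Across the 15 libraries, 9 of the 10 genes varied together more than *YAP1* did with any of them. The Pearson r of log2 CPM had a median of 0.83 over the 45 pairs of genes and was at least 0.58 for the 36 pairs without *YAP1*, and the lowest was -0.14, for *LATS2* and *YAP1*. The libraries share a cell line and their conditions, and these values are descriptions over 15 points. *AXL* was most like *LOX*, the matrix cross-linking enzyme lysyl oxidase (r 0.997, with 1845 genes above 0.9 among 14059 compared). The study counts *LOX*, like *IGFBP3*, among the targets that EWS/FLI represses directly. *CTGF* was most like *CTSZ*, *WWTR1* most like *NR3C1*, the glucocorticoid receptor, *TEAD1* most like *PLCD3*, *LATS2* most like *LNCOG* and *ANKRD1* most like *DNAJC3*, each at r 0.99. *AMOTL2* was most like *NEDD9* at 0.98, *CYR61* most like *CYB5D2* at 0.97 and *AJUBA* most like *SSR2* at 0.92. *YAP1* was most like *HMGN4* at 0.91. The number of genes above 0.9 was 6 with *YAP1* and 5 with *AJUBA*, against 123 with *CYR61* and 1747 with *CTGF*.

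Replicate 3 of WT-EF was the lowest of its condition for 17 of 23 target genes (7 of the 10 genes and the 16 further ones) and the highest for 1, against 33.9% and 34.6% of all genes tested. Replicate 3 was the highest library in both Δ22 and DAF for 14 of the 23 genes, against 20.2% of all genes tested. What set replicate 3 apart in these conditions was not tested.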
